A study of Rattus norvegicus with 6 samples.

Results

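Autophagy genes were examined in rat myocardium after 30 min of ischemia. They comprised 10 genes of the 32623 in the deposited table, chosen by gene symbol: Ulk1, Becn1, Wipi1, Atg5, the 5 genes of the Atg8 family (Map1lc3a, Map1lc3b, Gabarap, Gabarapl1 and Gabarapl2) and Sqstm1. All 10 were found once each, and all 10 passed the filter on low values. Total RNA of wild-type (WT) rats was sequenced from 3 sham samples and 3 ischemia samples. In the ischemia rats the left anterior descending coronary artery was tied for 30 min through an opened chest, under anesthesia and ventilation, and no reperfusion is labelled. Sham samples carry the same time in their titles, and the labels describe no ligation for them. All rats were described as male, and neither strain, age nor the sampled region of the heart is given in the sources used here. The labels do not state that each sample came from its own rat, so p-values measure the spread between these samples.

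Autophagy delivers cytoplasm, protein aggregates and damaged organelles to the lysosome. The kinase Ulk1 starts it, the lipid kinase complex that holds Becn1 marks the forming membrane, and Wipi1 reads that mark. Atg5 belongs to the conjugation machinery that attaches Atg8 proteins to the membrane, and Sqstm1 brings ubiquitinated cargo to them and is degraded with it. In heart muscle the pathway is known for turning over mitochondria and contractile proteins. Transcript levels, which were measured here, do not give the rate of degradation.

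Total counts ranged from 68529126 to 79591989 per sample, and the members had between 1229 counts (Atg5, sham replicate 1) and 51044 counts (Map1lc3a, sham replicate 2). Some samples stood apart before any comparison. Sham replicate 1 had 4 counts on the Y-linked genes Eif2s3y and Kdm5d together, against 1762 to 4310 in the other samples, although male rats are described. Cardiomyocyte markers (Myh6, Tnnt2, Tnni3, Actc1, Ryr2 and Pln) were present in every sample, with a summed level of 49010 to 77090 scaled CPM in sham and 11480 to 26240 in ischemia. Scaled CPM are CPM, counts relative to library size, after trimmed mean of M-values scaling. Sham replicate 2 was highest and ischemia replicate 2 lowest for that sum. The 4 atrial markers also differed within the sham group, where their sum was 47950 in replicate 1, 35820 in replicate 3 and 393.6 in replicate 2. Their sum in ischemia was 1219 to 9267. The 9 tested neutrophil and monocyte markers summed to 16.8 to 35.5 in sham and to 747.5 to 2462 in ischemia, highest in ischemia replicate 2. In such bulk tissue, fewer cells of a type and less RNA per cell cannot be told apart.

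The question was whether the autophagy machinery changed at the RNA level after 30 min of ischemia. None of the 10 genes passed the test: 0 were higher and 0 were lower at an adjusted p under 0.05 in the edgeR quasi-likelihood test. Over all 13964 genes tested, the same rule called 6.71%, of which 5.18% were higher and 1.53% lower in ischemia. Without adjustment, 1 of the 10 genes (Ulk1) had a p under 0.05, against 32.4% of all genes tested. DESeq2, which called 27.5% of genes, also called 0 of the 10, and there too 1 had an unadjusted p under 0.05. The members had a median log2 fold change of -0.22 and a median size of change of 0.31 on the log2 scale, where all genes tested had -0.0015 and 0.57. Of the 10, 4 had a positive and 6 a negative fold change. Groups did not overlap in scaled CPM for 2 of the 10 genes, Gabarap and Atg5, against 41.1% of all genes tested.

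**Figure D1:**
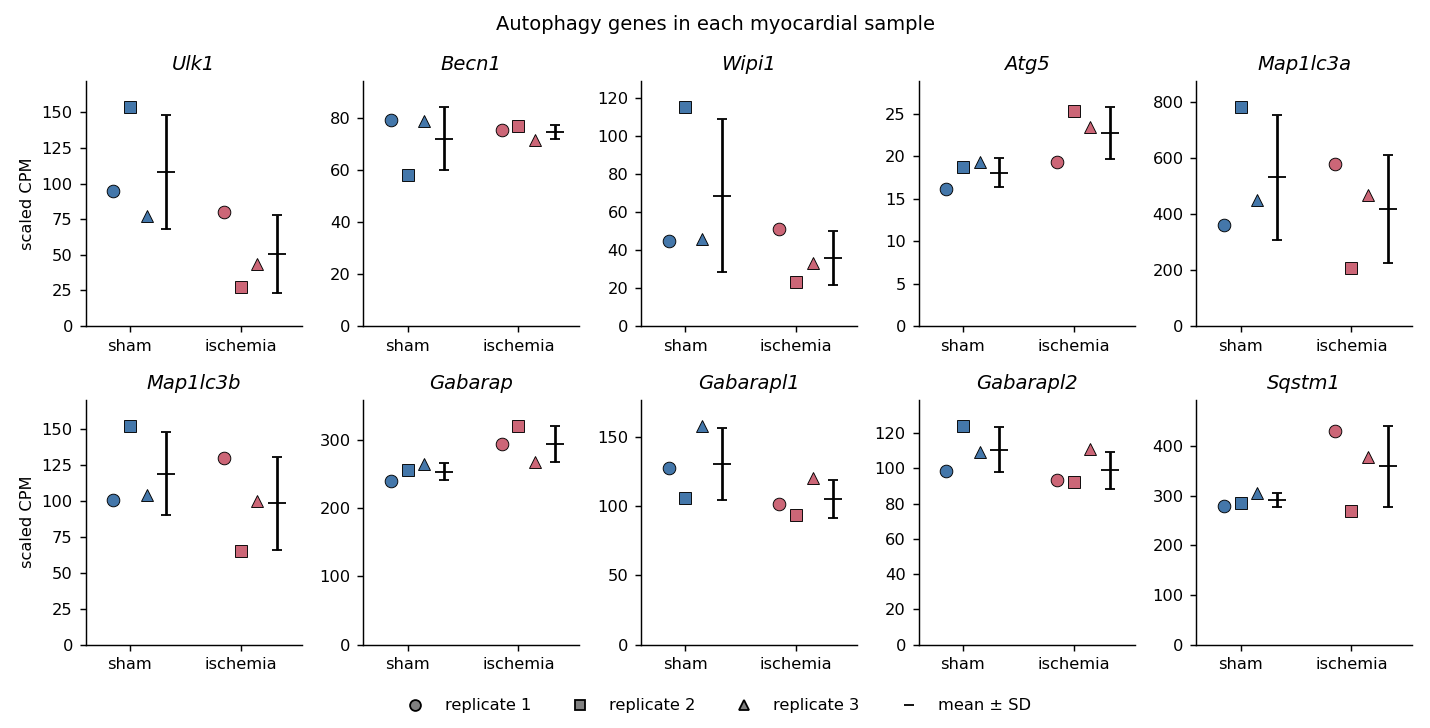
Scaled CPM of each autophagy gene (vertical axes, from 0) in the 3 sham and 3 ischemia samples, with marker shapes for replicates 1 to 3 and a bar for the mean ± SD of each group. Ulk1, Wipi1, Map1lc3a and Map1lc3b are highest in sham replicate 2 and lowest in ischemia replicate 2, while Becn1 is lowest in sham replicate 2.

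Ulk1, the kinase that starts autophagy, had the lowest fold change of the members. The gene spans 51908448 to 51934702 of chromosome 12 (plus strand) in the coordinates of the deposited table, whose build is not given in the sources used here. Its scaled CPM was 94.6, 153.6 and 77.0 in sham, in the order of replicates 1 to 3 that is kept below. In ischemia it was 80.3, 27.3 and 43.8. Ischemia replicates 2 and 3 lay below every sham sample, whereas ischemia replicate 1 lay above sham replicate 3, so the groups overlapped. The log2 fold change was -1.10 ± 0.45 (SE) with a 95% confidence interval from -2.20 to -0.010, and the adjusted p was 0.152 in edgeR. The value depended on single samples. Leaving out ischemia replicate 1 gave -1.62 (edgeR adjusted p 0.0449), in a fit that called 7.98% of all genes lower. Leaving out sham replicate 2 and ischemia replicate 2 together gave -0.47 (edgeR adjusted p 0.397).

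Becn1, a subunit of the lipid kinase complex of autophagy, had nearly the same level in both groups. Its scaled CPM was 79.2, 58.1 and 78.9 in sham, against 75.3, 77.1 and 71.6 in ischemia. The 3 ischemia samples lay inside the sham range, and the low value of sham replicate 2 made the sham group the more spread. Ischemia against sham gave a log2 fold change of 0.051 ± 0.18 (SE), with a 95% confidence interval from -0.38 to 0.48 and an adjusted p of 0.862 in edgeR. In folds this interval runs from 0.768 to 1.40. The direction turned to -0.089 without sham replicate 2.

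Wipi1, which binds the lipid made by that complex, had the widest sham range of the members relative to its level. Its scaled CPM was 45.0, 115.2 and 46.0 in sham and 50.9, 23.1 and 33.1 in ischemia. Sham replicate 2 was 2.56 times the lowest sham sample, and ischemia replicate 1 lay above both other sham samples. The edgeR log2 fold change was -0.94 ± 0.47 (SE), with a 95% confidence interval from -2.08 to 0.19 and an edgeR adjusted p of 0.212. It was -0.35 without sham replicate 2 and -0.11 without sham replicate 2 and ischemia replicate 2, against -1.30 without ischemia replicate 1. Wipi1 overlaps 3585 bp of Arsg on the other strand, a gene with 1609 to 5024 counts per sample. The library kit kept strand, but whether counting used it is not given in the sources used here, so reads of the overlap may be shared.

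Atg5, which is joined to Atg12 in the enzyme complex for Atg8 proteins, had the highest fold change of the members. Its scaled CPM was 16.1, 18.8 and 19.3 in sham, against 19.4, 25.4 and 23.4 in ischemia. The groups did not overlap, by a margin of 19.34 in sham replicate 3 to 19.35 in ischemia replicate 1. On the deposited FPKM, which are not scaled in that way, they did overlap, with 10.1 in sham replicate 3 and 9.79 in ischemia replicate 1. The fitted log2 fold change was 0.33 ± 0.19 (SE), with a 95% confidence interval from -0.13 to 0.79 and an edgeR adjusted p of 0.269. The exact permutation p was 0.1, which is the smallest that 3 against 3 samples allow.

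**Figure D2:**
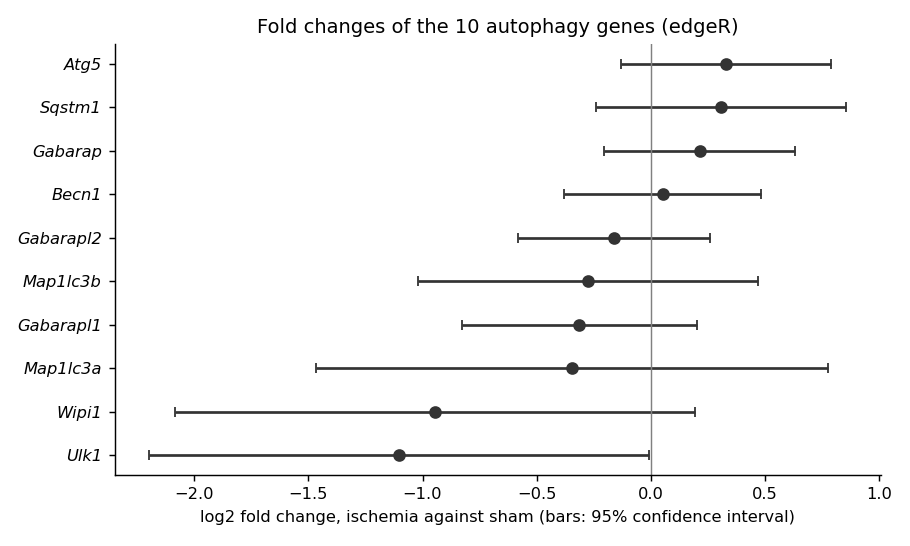
Log2 fold change of ischemia against sham from edgeR (horizontal axis) for the 10 autophagy genes, with 95% confidence intervals as bars. The interval of Ulk1 ends at -0.010 and those of the other 9 genes include 0.

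The Atg8 proteins coat the growing membrane and hold the cargo receptors. Of the LC3 members, Map1lc3a had 360.8, 780.8 and 449.1 scaled CPM in sham and 579.4, 205.4 and 467.9 in ischemia. Sham replicate 2 was the highest and ischemia replicate 2 the lowest of the 6, so the groups overlapped, while both other ischemia samples lay above both other sham samples on this scale. Its log2 fold change was -0.34 ± 0.47 (SE), with a 95% confidence interval from -1.47 to 0.78 and an edgeR adjusted p of 0.627. The direction was not stable, at 0.042 without sham replicate 2 and 0.37 without sham replicate 2 and ischemia replicate 2.

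Map1lc3b, the LC3 gene whose protein is the usual marker of autophagosomes, had 100.5, 152.5 and 104.4 scaled CPM in sham and 130.1, 65.0 and 100.3 in ischemia. The same samples formed the extremes as for Map1lc3a, and the groups overlapped. The log2 fold change was -0.27 ± 0.31 (SE), with a 95% confidence interval from -1.02 to 0.47 and an edgeR adjusted p of 0.558. It turned to 0.17 without sham replicate 2 and ischemia replicate 2. The table also lists a gene described as Map1lc3b2, with 148 to 243 counts per sample, with which reads of Map1lc3b could be shared.

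Gabarap, the founding gene of the other Atg8 branch, varied little. Its scaled CPM was 239.7, 255.9 and 264.0 in sham and 293.5, 320.4 and 267.4 in ischemia. All ischemia samples were above all sham samples on this scale, whereas on FPKM ischemia replicate 3 (305.6) was below sham replicate 3 (326.0). Ischemia against sham gave a log2 fold change of 0.21 ± 0.17 (SE), with a 95% confidence interval from -0.20 to 0.63, and edgeR gave an adjusted p of 0.412 (exact permutation p 0.1).

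Gabarapl1 had 127.7, 106.2 and 158.1 scaled CPM in sham and 101.8, 93.3 and 120.6 in ischemia. Ischemia replicates 1 and 2 were below every sham sample and ischemia replicate 3 was above sham replicate 2. The edgeR log2 fold change was -0.31 ± 0.21 (SE), with a 95% confidence interval from -0.83 to 0.20 and an edgeR adjusted p of 0.337. Gabarapl2 had 98.6, 124.1 and 109.0 scaled CPM in sham and 93.6, 92.0 and 110.8 in ischemia, with overlapping groups. Its log2 fold change was -0.16 ± 0.18 (SE), with a 95% confidence interval from -0.58 to 0.26 and an edgeR adjusted p of 0.540.

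The makeup of the Atg8 transcripts was described by FPKM, counts divided by gene length and library size, which allow genes to be compared. Map1lc3a held 43.5%, 60.1% and 46.2% of the summed FPKM of the 5 genes in sham and 52.2%, 28.3% and 48.1% in ischemia. Gabarap held 34.1%, 23.2% and 32.0% in sham and 31.2%, 52.0% and 32.4% in ischemia. Map1lc3a was thus above Gabarap in 5 of the 6 samples and below it in ischemia replicate 2, where the ratio was 0.544 against 1.28 to 2.59 in the other samples. The other 3 genes each held between 4.70% and 9.34%. The summed FPKM of the family averaged 985.7 ± 116.4 in the sham group and 955.9 ± 160.8 in the ischemia group (SD, n = 3 each), a difference smaller than the spread between replicates.

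**Figure D3:**
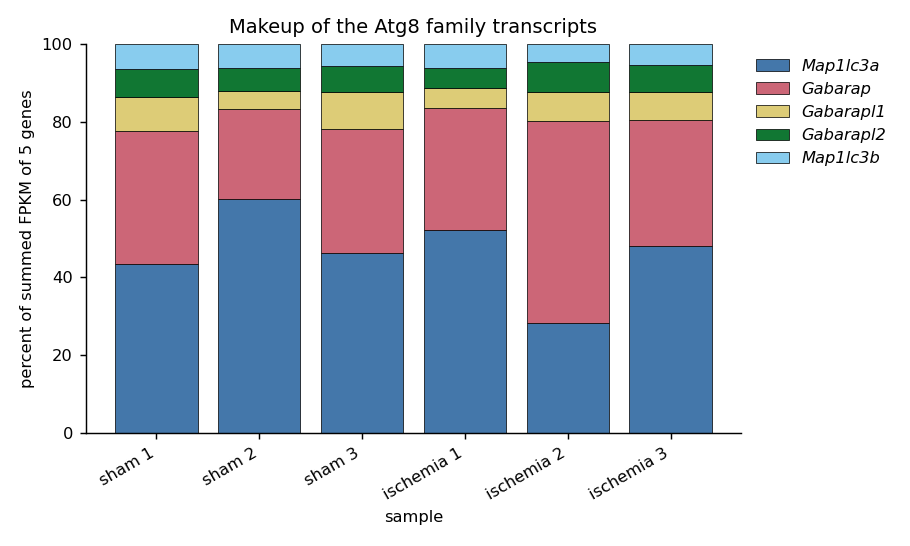
Share of the summed FPKM of the 5 Atg8 genes (vertical axis, percent) held by each gene in every sample, as stacked bars. Map1lc3a holds the largest share except in ischemia replicate 2, where Gabarap holds 52.0%.

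Sqstm1, also called p62, is the cargo receptor that links ubiquitinated proteins to Atg8 proteins. The gene spans 35704730 to 35716294 of chromosome 10 (minus strand) and overlaps 47 bp of Mrnip, a gene with 120 to 193 counts per sample on the other strand. Its scaled CPM was 279.2, 285.8 and 306.1 in sham and 430.4, 270.0 and 376.9 in ischemia. Sham samples lay close together, ischemia replicates 1 and 3 lay above all of them, and ischemia replicate 2 lay below all of them. On FPKM ischemia replicate 2 (142.4) lay instead within the sham range of 113.8 to 153.3. The fitted log2 fold change was 0.31 ± 0.23 (SE), with a 95% confidence interval from -0.24 to 0.86 and an adjusted p of 0.372 in edgeR. In folds the interval runs from 0.846 to 1.81. The value was 0.47 without ischemia replicate 2, with an edgeR adjusted p of 0.189, and 0.15 without ischemia replicate 1.

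Sqstm1 was also set against the LC3 gene with which its protein is commonly read. The ratio of Sqstm1 to Map1lc3b FPKM was 2.52, 1.70 and 2.66 in sham, against 3.004, 3.77 and 3.41 in ischemia. The groups did not overlap for this ratio, which was 1 of 5 ratios of members computed and was singled out after its values were seen, so it carries no test.

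Genes with a pattern like that of Sqstm1 were sought by Pearson correlation of log2 CPM over the 6 samples. The 5 highest were Grb10 (0.992), Iffo1 (0.986), Cdk2ap1 (0.984), Adck5 (0.983) and Nol3 (0.981). On scaled CPM each was, like Sqstm1, highest in ischemia replicate 1, followed by ischemia replicate 3, and lowest in ischemia replicate 2. Nol3, which encodes an inhibitor of cell death found in heart and skeletal muscle, had 48.7, 53.0 and 50.8 scaled CPM in sham and 113.0, 38.7 and 87.8 in ischemia. None of the 5 passed, with edgeR adjusted p-values from 0.228 to 0.533. These values describe 6 libraries, in which all genes share depth and tissue makeup. Among the members, the correlation with Sqstm1 was between -0.14 (Gabarapl2) and 0.43 (Map1lc3a).

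Levels can be ranked on the FPKM scale, which takes length into account. In sham the order was Map1lc3a (497.7 ± 140.9, SD, n = 3), Gabarap (289.6 ± 37.4), Sqstm1 (134.9 ± 19.9), Gabarapl1 (73.9 ± 22.3), Gabarapl2 (64.8 ± 4.11), Map1lc3b (59.7 ± 6.40), Wipi1 (32.1 ± 14.2), Ulk1 (20.2 ± 4.74), Becn1 (18.5 ± 5.09) and Atg5 (8.76 ± 1.21). The sample ranges of neighbours overlapped for Gabarapl1 with Gabarapl2, Gabarapl2 with Map1lc3b, Wipi1 with Ulk1 and Ulk1 with Becn1. In ischemia the upper 6 places were in the same order. There the ranges overlapped for Map1lc3a with Gabarap, which they did not in sham, Gabarapl1 with Gabarapl2 and Gabarapl2 with Map1lc3b. Below these 6 stood Becn1 (20.03 ± 2.05), Wipi1 (18.4 ± 6.84), Atg5 (11.7 ± 2.12) and Ulk1 (10.2 ± 5.30), where each neighbouring pair overlapped. Ulk1 thus moved from rank 8 to rank 10, without a difference in level that passed the test.

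On scaled CPM, single samples held most of the extreme values of these genes. On that scale ischemia replicate 2 was the lowest of the 6 samples for 7 of the 10 genes (Sqstm1, Map1lc3a, Map1lc3b, Gabarapl1, Gabarapl2, Ulk1 and Wipi1) and the highest for Gabarap and Atg5. Sham replicate 2 was the highest for 5 genes (Map1lc3a, Map1lc3b, Gabarapl2, Ulk1 and Wipi1) and the lowest for Becn1. The pattern depended on the scale. On FPKM ischemia replicate 2 was the lowest for 4 genes (Map1lc3a, Map1lc3b, Ulk1 and Wipi1), and sham replicate 2 was the highest for 3 (Map1lc3a, Ulk1 and Wipi1) and the lowest for 5. On scaled CPM the highest sample exceeded the lowest 5.63 times for Ulk1, 4.99 times for Wipi1 and 3.80 times for Map1lc3a, but 1.34 times for Gabarap and 1.36 times for Becn1. The same samples were the extremes of the summed cardiomyocyte markers, 77090 scaled CPM in sham replicate 2 and 11480 in ischemia replicate 2. They also had the extreme trimmed mean of M-values factors, 0.834 in sham replicate 2 (lowest) and 1.11 in ischemia replicate 2 (highest). A lower factor raises scaled CPM. The part of the markers and of the scaling in the spread of Ulk1, Wipi1 and Map1lc3a was not tested. Without both of these samples 0 of the 10 genes passed either, in a fit added after seeing the data that called 57 genes higher and 13 lower among all 13964. Without sham replicate 1, the library with 4 Y-linked counts, all 10 kept their direction, in a fit that called 0 of the 13964 genes and so gives no information on calls.

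**Figure D4:**
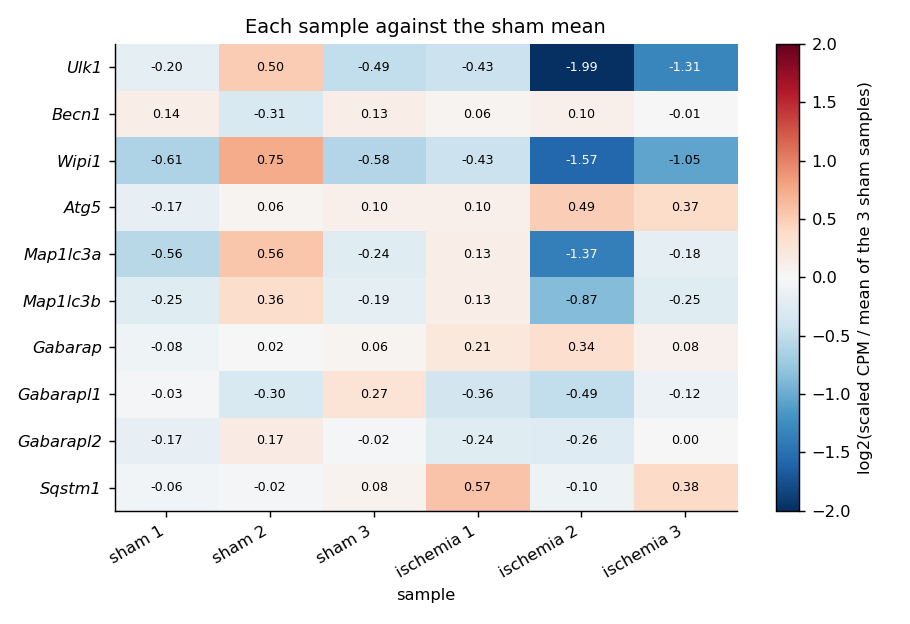
Log2 of scaled CPM relative to the mean of the 3 sham samples, for each autophagy gene (rows) in each sample (columns), with blue below and red above that mean. Ischemia replicate 2 reaches -1.99 for Ulk1, -1.57 for Wipi1 and -1.37 for Map1lc3a, and sham replicate 2 lies at 0.50, 0.75 and 0.56 for them.

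The rest of the pathway was read from 9 lists with 94 other genes, of which 92 were in the table and 91 were tested. Across them 2 genes rose (Atg7 and Ddit4) and 1 fell (Fundc1), 88 did not pass, and the median log2 fold change was -0.047. Unadjusted p was under 0.05 for 19 of the 91 genes, a share of 20.9% against 32.4% of all genes tested. Groups did not overlap for 33 of them, a share of 36.3% against 41.1% of all genes, and the 3 calls compare with 6.71% of all genes. By list, the unadjusted share ran from 0% to 40.0% and the share without overlap from 0% to 50.0%. Both were highest for the regulators and 0% for the initiation complex.

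Among conjugation enzymes, 1 of 9 rose and 0 fell, against 5.18% higher and 1.53% lower of all genes tested. Atg7, the activating enzyme that serves both conjugation reactions, had 11.2, 9.25 and 9.87 scaled CPM in sham and 16.3, 24.7 and 22.2 in ischemia. All ischemia samples were above all sham samples. The log2 fold change was 1.06 ± 0.23 (SE), with a 95% confidence interval from 0.51 to 1.604 and an edgeR adjusted p of 0.0484. Atg7 passed in 5 of the 17 alternatives. It did not pass without sham replicate 1, 2 or 3 or ischemia replicate 2 or 3, where the log2 fold change stayed between 0.92 and 1.14 and edgeR adjusted p-values ran from 0.0805 to 0.162. In all of these fits but the one without ischemia replicate 2, edgeR called 0 of the 13964 genes. With all 6 samples Atg7 also missed the threshold where many genes were called. Its edgeR adjusted p was 0.0660 with total counts only, a fit that called 509 genes higher and 83 lower. It was 0.05 with upper-quartile scaling and 0.0585 without a filter on low values. The limma adjusted p was 0.0589 on log2(FPKM + 0.1) and 0.0638 on log2(FPKM + 1). The neutrophil and monocyte markers, 9 of 9 of which were higher in ischemia, moved with Atg7, and their part in the result was not tested. The lowest of the list was Atg10 (-0.91, edgeR adjusted p 0.188), while Atg3, the enzyme that hands Atg8 proteins to the lipid, had 0.48 (0.226).

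Of the 9 cargo receptors other than Sqstm1, 1 fell and 0 rose, against 1.53% lower and 5.18% higher of all genes tested. Fundc1, a mitophagy receptor of the outer mitochondrial membrane, had 37.0, 27.5 and 33.4 scaled CPM in sham and 15.6, 8.30 and 12.3 in ischemia. Every ischemia sample was below every sham sample. Ischemia against sham gave a log2 fold change of -1.44 ± 0.28 (SE), with a 95% confidence interval from -2.11 to -0.76 and an edgeR adjusted p of 0.0422. Without sham replicate 1, 2 or 3 or ischemia replicate 3, where edgeR called 0 of the 13964 genes, the log2 fold change was -1.55 to -1.34 (adjusted p 0.0845 to 0.162). Fundc1 also missed the threshold in fits that did call genes. The edgeR adjusted p was 0.0552 with total counts only (509 genes higher and 83 lower) and 0.0514 without a filter on low values. Without sham replicate 2 and ischemia replicate 2 it was 0.05495. The summed cardiomyocyte markers, none of which passed the test alone, were lower in every ischemia sample than in every sham sample. Fibroblast markers (3500 to 9058 summed scaled CPM in sham, 743 to 2525 in ischemia) and adipocyte markers (44.3 to 420.2 and 0.435 to 42.0) were lower in the same way. Singly, 3 of 6 cardiomyocyte, 3 of 5 fibroblast and 2 of 3 adipocyte markers were lower without overlap, and 0 passed. Smooth muscle markers overlapped, with 240.6 to 1326 in sham and 67.2 to 353.8 in ischemia. The part of these cell types in the result was not tested. Tax1bp1 had the highest value of the list (0.33, edgeR adjusted p 0.625). Nbr1, a receptor built much like Sqstm1, had -0.22 (0.434), and the hypoxia-responsive mitophagy receptor Bnip3 had 0.25 (0.422).

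Of 20 regulators, 1 rose and 0 fell, against 5.18% higher and 1.53% lower of all genes tested. Ddit4, an inhibitor of mTORC1 signalling that hypoxia induces, had 26.2, 27.7 and 27.8 scaled CPM in sham and 78.8, 95.1 and 53.9 in ischemia. The sham samples lay within a narrow range, and every ischemia sample was above them. The edgeR log2 fold change was 1.48 ± 0.24 (SE), with a 95% confidence interval from 0.91 to 2.05 and an edgeR adjusted p of 0.0327. The neutrophil and monocyte markers were higher in the same samples (747.5 to 2462 summed scaled CPM, against 16.8 to 35.5 in sham), and their part in the result was not tested. In those same 4 fits without a single call the log2 fold change of Ddit4 was 1.45 to 1.67 (edgeR adjusted p 0.0830 to 0.159). Ddit4 also missed the threshold without sham replicate 2 and ischemia replicate 2 (edgeR adjusted p 0.064), where 57 genes were called higher and 13 lower. Trib3, a stress-induced pseudokinase, had the highest value of the list (3.27, edgeR adjusted p 0.0952), with 37.7 scaled CPM in ischemia replicate 2 against 2.64 and 4.96 in the other ischemia samples. Sesn1, a sestrin upstream of mTORC1, had the lowest (-1.10, edgeR adjusted p 0.149). The lysosomal transcription factors Tfeb (-0.030, edgeR adjusted p 0.920) and Tfe3 (0.15, 0.660) had intervals from -0.46 to 0.40 and from -0.38 to 0.66.

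In the remaining lists 0 genes passed. The initiation complex around Ulk1 (4 tested) ran from -0.15 for Atg13 to 0.85 for Rb1cc1 on the log2 scale, and the complex around Becn1 (7 tested) from -0.52 for Pik3r4 to 0.072 for Nrbf2. Lipid transfer and phagophore genes (9 tested) ran from -0.67 for Atg9a to 0.56 for Vmp1, and fusion genes (13 tested) from -0.80 for Vps39 to 0.74 for Vamp8. Lysosomal genes (15 tested) ran from -0.96 for Hexa to 1.08 for the protease gene Ctsl. Of the 5 factors named with Sqstm1, values ran from -0.098 for Tbk1, a kinase that phosphorylates Sqstm1, to 0.68 for Traf6. Nfe2l2, which encodes the factor Nrf2 that Sqstm1 releases from Keap1, had 0.64 (edgeR adjusted p 0.177) and Keap1 had -0.025 (0.945). Bag3, a co-chaperone that works with Sqstm1 in muscle, had 0.27 with an edgeR adjusted p of 0.582.

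**Figure D5:**
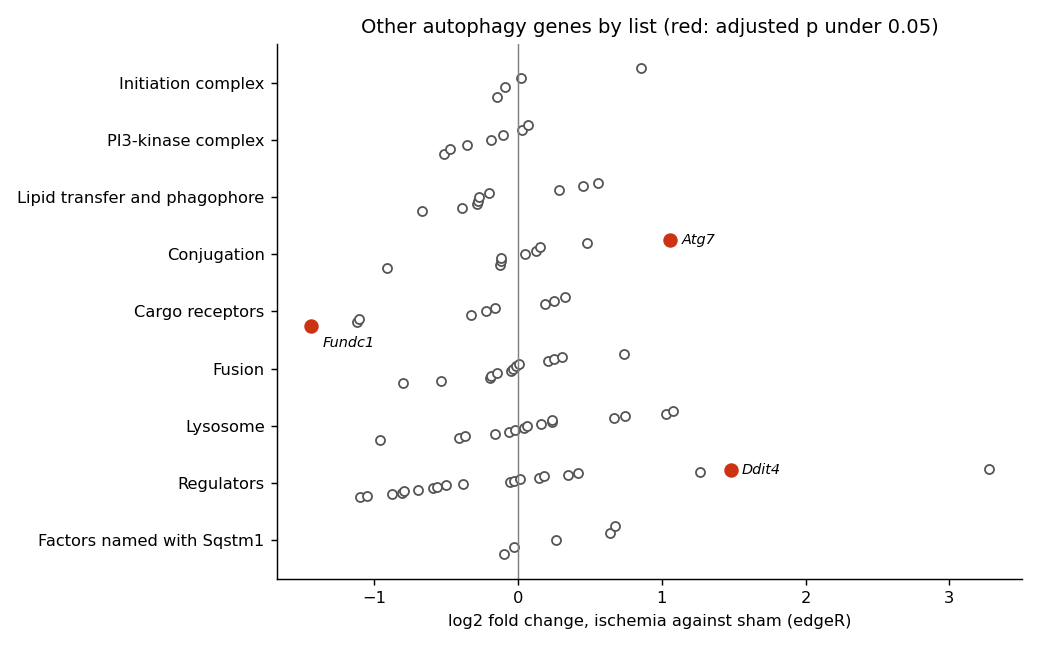
Log2 fold change of ischemia against sham from edgeR (horizontal axis) for the 91 other autophagy genes tested, each a circle, in rows by list. Red circles mark Atg7 (1.06), Ddit4 (1.48) and Fundc1 (-1.44), the genes past an adjusted p of 0.05.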

How the data were processed

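Total RNA of rat myocardium was sequenced from a stranded kit in 3 sham and 3 ischemia samples. The authors deposited raw counts per Ensembl gene, not normalized, and FPKM computed by them. The submitters' processing notes name STAR and HTSeq; versions, genome build and strand setting are not given in the sources used here. Columns were assigned by the sample descriptions.

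The 13964 genes whose FPKM averaged 0.5 or more were tested with the edgeR quasi-likelihood test on counts, scaled by trimmed mean of M-values, with group as the only term. The two-sided p-values were Benjamini-Hochberg adjusted over all genes tested, with a threshold of 0.05. Standard errors and 95% confidence intervals came from the F statistic. Single values were also compared by two-sided exact permutation tests of log2 CPM (prior count 2). The test was checked on simulated data. The members and the lists of other genes were chosen with earlier results of these data known. Named were all members, every list gene past the threshold, each list's highest and lowest value, and the 5 genes most correlated with Sqstm1; other list genes, among them Atg3, Nbr1, Bnip3, Tfeb, Tfe3, Nfe2l2, Keap1 and Bag3, were added for their roles after their values were seen. Alternatives were DESeq2, scaling by median ratios, total counts only or upper quartiles, the mitochondrial genome left out, and 2 filters. Further ones were limma on log2(FPKM + 0.1) and log2(FPKM + 1), the replicate number as a block, and each sample left out. Leaving out sham replicate 2 with ischemia replicate 2 was added after seeing the data. Total counts per sample were 68529126 to 79591989, where 3 counts equal 0.0377 to 0.0438 CPM, counting error only. Statistics were run in Python 3.11.15 with scipy 1.17.1 and in R 4.3.3 with DESeq2 1.42.0, edgeR 4.0.16 and limma 3.58.1, and plots in matplotlib 3.10.9.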

Additional observations from a re-analysis of the deposited data

How the results depend on the processing

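In 5 of the 17 alternatives (the replicate block, and without sham replicate 1, 2 or 3 or ischemia replicate 3) edgeR called 0 of all 13964 genes, so these give no information on calls. In the others Ulk1 passed without ischemia replicate 1, and no other member passed. Over the fits that each left out 1 sample, 0 members were higher and 0 to 1 lower. Between 0 and 2 members had an unadjusted p under 0.05 in any alternative, DESeq2 and limma included. Directions turned for Map1lc3a (0.042 without sham replicate 2 and 0.37 without sham replicate 2 and ischemia replicate 2), Becn1 (-0.089 and -0.11) and Map1lc3b (0.17 without both samples). With samples left out, Map1lc3a ranged from -0.66 to 0.37, Map1lc3b from -0.54 to 0.17 and Becn1 from -0.11 to 0.12. The other 7 members kept their direction in all 17.

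Other autophagy genes past the threshold, 2 higher and 1 lower as reported, were 7 and 8 of 91 with DESeq2, which called 2071 higher and 1742 lower of 13856 genes. At a mean FPKM of at least 5, 3 were higher and 4 lower of the 69 tested, against 725 and 291 of all 8156. Lower genes were 3 with median-ratio scaling and 2 without the mitochondrial genome. Upper-quartile scaling gave 1 higher and 2 lower, total counts only 1 and 0, no filter on low values 1 and 0 (each with 16 genes at an unadjusted p under 0.05 in edgeR), and limma on log2(FPKM + 1) 1 higher. Leaving out 1 sample gave 0 to 4 higher and 0 to 5 lower. The highest counts came without ischemia replicate 1, a fit that called 1490 higher and 1115 lower of all 13964 genes, and both counts were 0 without sham replicate 1, 2 or 3 or ischemia replicate 3, where 9 to 15 of these genes and 3020 to 3809 of all 13964 had an unadjusted p under 0.05 in edgeR. Without sham replicate 2 and ischemia replicate 2 they were 0 and 0, with 19 at an unadjusted p under 0.05. Atg7, Fundc1 and Ddit4 passed in 5, 9 and 11 of the 17 and kept their direction in all.

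With the replicate number as a block, 0 members and 0 and 0 other genes passed in edgeR, as did 0 of all genes, with 0 members, 12 other autophagy genes and 3349 of all genes at an unadjusted p under 0.05. The labels tie no litter, batch or day to a number, and deviations of same-numbered samples had a correlation of -0.0561, -0.0940 and -0.196, and differently numbered ones 0.0553 on average. Deviations were taken from the mean of each group, which ties these values together, so the last is no independent comparison. The cause of the changes between alternatives was not tested. Each member had at least 1229 counts in each sample, and what limits the precision was not compared.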

Other observations

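Among the other autophagy genes, 5 lay just outside the threshold, at an edgeR adjusted p between 0.05 and 0.06, and were chosen for mention after their values were seen. The lysosomal protease genes Ctsb and Ctsl had log2 fold changes of 1.03 ± 0.23 (SE; edgeR adjusted p 0.0504) and 1.08 ± 0.26 (0.0551), with every ischemia sample above every sham sample. The neutrophil and monocyte markers, summed to 16.8 to 35.5 scaled CPM in sham and 747.5 to 2462 in ischemia, were higher in the same samples, and their part was not tested. Zkscan3, which encodes a repressor of autophagy genes, had -0.80 ± 0.18 (edgeR adjusted p 0.0503). The cargo receptor gene Optn had -1.12 ± 0.25 (0.0510) and the tethering factor gene Vps39 had -0.80 ± 0.18 (0.0519), and in these 3 genes every ischemia sample was below every sham sample. Groups did not overlap in scaled CPM for 41.1% of all genes tested. The number of all genes this close to the threshold was not counted. The summed cardiomyocyte, fibroblast and adipocyte markers were also lower in every ischemia sample than in every sham sample, and their part was not tested. Singly, this held for 3 of 6, 3 of 5 and 2 of 3 of these markers.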
